A study of Mus musculus with 6 samples.

Results

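The transcripts described are 32 genes of the cell cycle and DNA replication, a list chosen by gene symbol and kept in its 3 stages of 10 G1 genes, 10 S phase genes and 12 mitotic genes. All 32 symbols were found among the 17680 gene symbols of the count tables, and all 32 passed the filter on low counts that left 14219 genes for testing. Whole kidneys came from C57BL/6 mice of wild-type (WT) genotype, 6 to 8 weeks old, and their RNA was sequenced. In the LPS group, 3 mice had received lipopolysaccharide, a bacterial outer membrane component, into the peritoneum, and in the Control group 3 mice had received phosphate-buffered saline by the same route. Kidneys were taken 24 h after injection, and the series asks which transcripts differ in kidneys injured in this model of sepsis. Neither the LPS dose nor the animals' sex is given in the sources used here.

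A dividing cell passes through G1, in which D-type cyclins bind Cdk4 and Cdk6 and relieve the retinoblastoma protein's block on E2F factors, then S phase, in which the MCM helicase opens DNA and the clamp PCNA holds the polymerases, and then mitosis, driven by Cdk1 with cyclins A and B. Many S phase genes are targets of E2F factors, and many mitotic genes are held down in resting cells by the DREAM complex. Tubule cells of the adult kidney divide rarely, and after injury surviving cells can re-enter the cycle. A transcript level in whole tissue does not count dividing cells.

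The libraries held between 29097558 and 33454344 counts, and libraries of one group correlated at 0.986 to 0.995 over genes on a log scale, against 0.922 to 0.933 for libraries of different groups. Markers of kidney were present in every library, with Umod, which encodes uromodulin of the thick ascending limb, among them. A pair of libraries stood apart. LPS replicate 2 carried 3.72% of its counts in seminal vesicle transcripts (all symbols of the Svs and Pate families), which made up at most 0.00463% elsewhere. Control replicate 1 had the highest level of the 6 libraries for all 8 T and B cell markers, summing to 27.7 CPM, whereas Control replicates 2 and 3 each had 10.7 CPM and the LPS libraries 3.79 to 5.41 CPM. CPM are counts relative to library size, corrected with TMM factors. Fewer cells of a type and less RNA per cell cannot be told apart in such bulk samples.

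In LPS kidneys the D-type cyclins fell, their kinase partners rose, the genes of replication moved in both directions and no mitotic gene passed the test. Of the 32 genes, 5 rose (Cdk4, Cdk6, Cdc25a, Mcm2 and Pcna) and 4 fell (Ccnd1, Ccnd2, Ccnd3 and Mcm6) at an adjusted p below 0.05 (edgeR quasi-likelihood test, Benjamini-Hochberg adjustment over all 14219 genes). Over all genes tested 25.7% rose and 24.8% fell, together 50.5%, so the 28.1% of members that passed lies below the background. That background is not matched for level. By stage, 60% of the G1 genes, 30% of the S phase genes and 0% of the scarce mitotic genes passed. The median log2 fold change was -0.02 over the members and 0.01 over all genes tested. The largest change was a 2.001-fold fall, that of Ccnd1. The p-values measure the spread among the 3 libraries of each group. Leaving out LPS replicate 2 gave 4 rises and 4 falls, and leaving out Control replicate 1 gave 5 and 4. Without both, a comparison chosen after seeing the data, 3 rose and 4 fell, with Cdc25a (adjusted p = 0.05647) and Pcna (adjusted p = 0.0768) no longer past the threshold (edgeR).

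**Figure D1:**
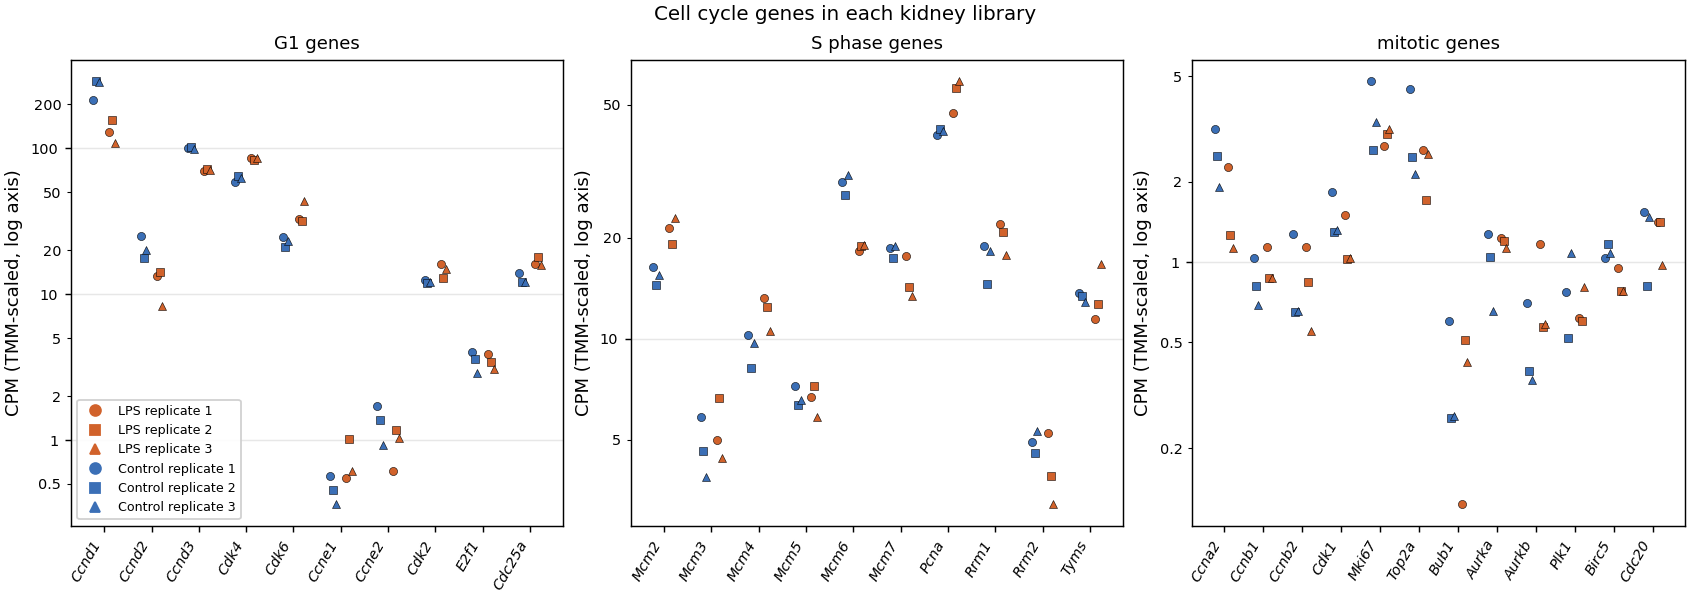
CPM on a log axis for each of the 32 genes in each library, with Control libraries in blue, LPS libraries in orange and one symbol per replicate number. The LPS points of Ccnd1, Ccnd2, Ccnd3, Mcm6 and Birc5 all lie below the Control points. Those of Cdk4, Cdk6, Cdk2, Cdc25a, Mcm2, Mcm4 and Pcna all lie above. The points of the other genes overlap, among them 11 of the 12 mitotic genes. Over all genes tested, 60.2% had groups without overlap, 30.5% with LPS above and 29.8% with LPS below.

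**Figure D2:**
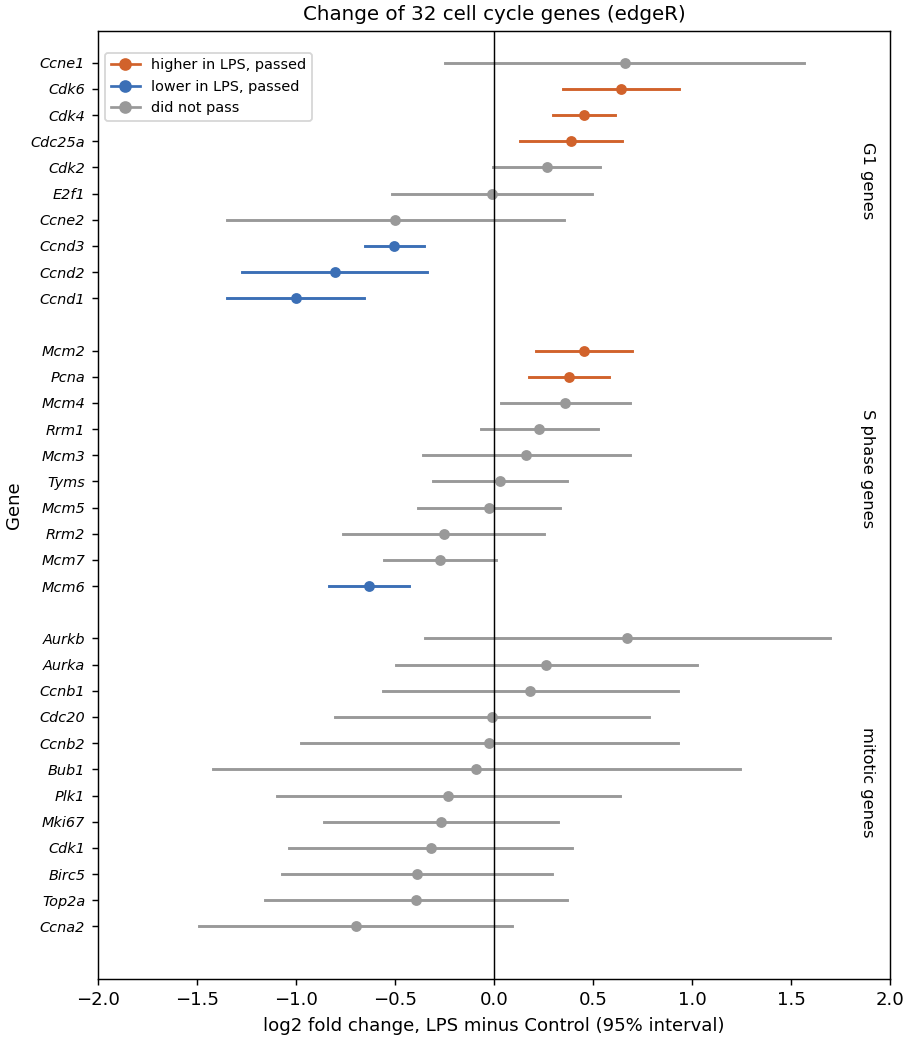
Log2 fold change of each gene, LPS minus Control, with its 95% interval, coloured where the adjusted p was below 0.05. The coloured points are 5 rises and 4 falls among G1 and S phase genes, and all 12 mitotic genes are grey.

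All 3 D-type cyclins, the growth-factor-sensed partners of Cdk4 and Cdk6, were lower in LPS kidneys. Ccnd1 had 216, 288 and 283.5 CPM in the Control libraries, in the order of replicates 1 to 3, and 129, 156 and 109 CPM in the LPS libraries, in the same order. Every LPS library lay below every Control library, and the log2 fold change was -1.001 ± 0.152 (SE; adjusted p = 0.000609, edgeR). Ccnd3 stood at 101, 102 and 99.5 CPM in Control libraries and at 70.2, 72.3 and 71.0 CPM in LPS libraries. This gene had the tightest replicates of the 3 cyclins, and it fell by 0.50 ± 0.07 on the log2 scale (adjusted p = 0.000262, edgeR). Ccnd2, a D cyclin prominent in lymphocytes among other cells, had 25.1, 17.7 and 20.0 CPM in Control and 13.4, 14.1 and 8.36 CPM in LPS libraries. The groups did not overlap for this gene either, and its log2 fold change was -0.80 ± 0.21 (adjusted p = 0.00995, edgeR). Its highest value was in Control replicate 1, the library with the most T and B cell marker RNA, and without that library the gene stayed called, as it did under each of the 18 alternatives run, with adjusted p-values up to 0.0349. The part of those cells in the fall of Ccnd2 was not tested.

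The kinases that bind D cyclins moved the other way. Cdk4 stood at 59.0, 64.4 and 62.6 CPM in Control and at 85.7, 83.7 and 85.8 CPM in LPS libraries, a log2 fold change of 0.46 ± 0.07 (adjusted p = 0.000567, edgeR). Cdk6 stood at 24.7, 21.1 and 23.2 CPM in Control and at 32.6, 31.7 and 43.3 CPM in LPS libraries, with LPS replicate 3 the highest, and rose by 0.64 ± 0.13 (adjusted p = 0.00296, edgeR). No LPS library overlapped a Control library for either kinase. The D cyclins together, measured per transcript length as FPKM, stood at 2.31, 2.53 and 2.55 times the summed FPKM of Cdk4 and Cdk6 in Control libraries and at 1.01, 1.17 and 0.910 times in LPS libraries. That ratio is taken within a library and does not depend on the scaling between libraries. It was chosen after the values of its genes were seen and is given without a test. Ccnd1 made up 56.9% to 64.2% of D cyclin FPKM in Control libraries and 49.6% to 57.6% in LPS libraries, ranges that overlap.

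Exons of some of these genes overlap other genes on the opposite strand in the GENCODE M21 annotation of GRCm38, and whether the counting used strand is not stated in the labels or files. Tspan31 overlaps 31.2% of the exon bases of Cdk4, LTO1 overlaps 21.9% of those of Ccnd1 and Bysl overlaps 14.8% of those of Ccnd3. Tspan31 (log2 fold change 0.11, adjusted p = 0.292, edgeR) and LTO1 (-0.10, adjusted p = 0.370) did not pass, and Bysl rose by 0.87, against the direction of Ccnd3. The scarce members Ccne2 (20 to 51 counts a library), Ccna2 (35 to 95) and Cdc20 (25 to 47) overlap genes with more counts, at 10.5%, 10.4% and 2.96% of their exon bases. Their partners are Ints8 with 713 to 936 counts a library, Exosc9 with 399 to 651 and Elovl1 with 3417 to 4742. Ints8 did not pass (log2 fold change -0.04, adjusted p = 0.772, edgeR), and Exosc9 and Elovl1 rose by 0.38 and 0.27. Reads from overlapping parts cannot be assigned to a strand from these counts. GENCODE M21 also lists a pseudogene named after Ccnd3, so the counts of Ccnd3 can include or lose reads of that copy.

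Of the 5 G1 genes on the list other than D cyclins and their kinases, 1 rose and 4 did not pass. Cdc25a, a phosphatase that removes inhibitory phosphates from Cdks, stood at 13.9, 12.2 and 12.1 CPM in Control and at 16.1, 18.0 and 15.9 CPM in LPS libraries. It rose by 0.39 ± 0.11 (adjusted p = 0.0181, edgeR), a call that ended without LPS replicate 2 (adjusted p = 0.0724), Control replicate 2 (0.06465) or Control replicate 3 (0.05946). Cdk2, the partner of cyclin E, stood at 12.01 to 12.5 CPM in Control and 12.9 to 16.2 CPM in LPS libraries, without overlap. It did not pass (log2 fold change 0.27, 95% interval -0.003 to 0.536, adjusted p = 0.0914, edgeR). The E cyclins were scarce. Ccne1 had 42 counts over the 3 Control libraries and 71 over the LPS libraries, and Ccne2 had 121 and 91. Their intervals of the log2 fold change, -0.25 to 1.57 and -1.35 to 0.35, do not exclude changes above 2-fold. E2f1, the activating transcription factor downstream of the retinoblastoma protein, stood at 2.86 to 4.05 CPM in Control and 3.08 to 3.90 CPM in LPS libraries, with an interval of -0.52 to 0.50.

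In the set of 10 S phase genes, 2 rose, 1 fell and 7 did not pass, and the median log2 fold change was 0.10. All 10 intervals lay within a 2-fold change in either direction. Pcna, the sliding clamp of the DNA polymerases, stood at 40.6, 42.2 and 41.7 CPM in Control and at 47.1, 56.0 and 58.7 CPM in LPS libraries. Each LPS library was above each Control library, the LPS libraries were the more spread, and the log2 fold change was 0.38 ± 0.09 (adjusted p = 0.00707, edgeR). GENCODE M21 lists pseudogenes named after Pcna and Tyms among the S phase genes, so the counts of both can include or lose reads of such copies.

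The subunits of the MCM helicase, which is loaded onto DNA as a ring holding one copy of each of Mcm2 to Mcm7, did not move together. Mcm2 stood at 16.4, 14.5 and 15.6 CPM in Control and at 21.4, 19.3 and 22.9 CPM in LPS libraries and rose by 0.46 ± 0.11 (adjusted p = 0.00635, edgeR). Mcm6 stood at 29.4, 26.9 and 30.9 CPM in Control and at 18.3, 18.9 and 19.1 CPM in LPS libraries and fell by 0.63 ± 0.09 (adjusted p = 0.000368, edgeR). Neither gene's groups overlapped, and both calls and directions held in each of the 18 alternatives run. Per length, Mcm2 stood at 0.730, 0.707 and 0.663 times the FPKM of Mcm6 in Control libraries and at 1.54, 1.34 and 1.58 times in LPS libraries. The order of the 2 subunits was thus opposite in the groups, in a pair chosen after the values were seen and given without a test. Among the 6 subunits' summed FPKM, Mcm6 took 26.7% to 28.9% in Control and 17.2% to 19.7% in LPS libraries, and Mcm2 took 19.2% to 19.5% and 25.1% to 31.1%.

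**Figure D3:**
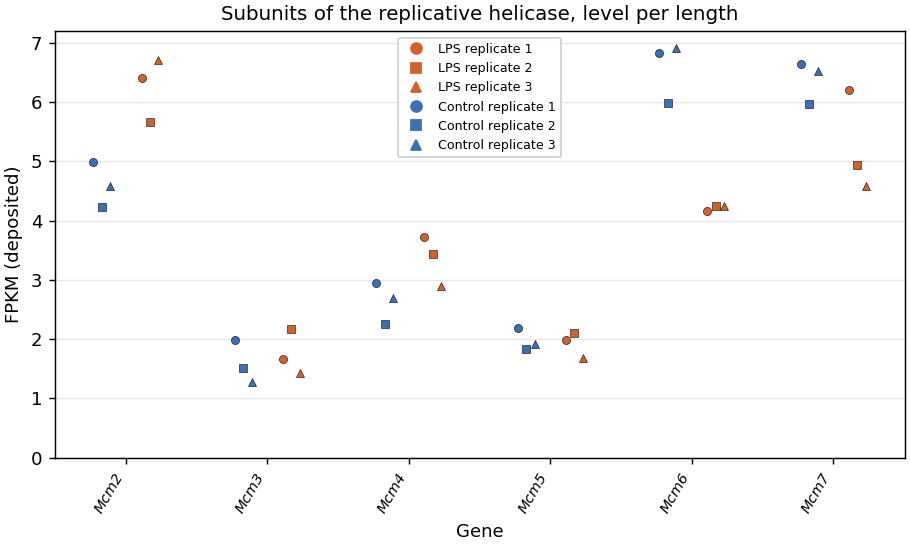
Deposited FPKM of the 6 MCM subunits in each library, with Control libraries in blue and LPS libraries in orange. Mcm6 lies between 5.99 and 6.92 FPKM in Control and between 4.16 and 4.25 FPKM in LPS libraries, while Mcm2 lies between 4.24 and 4.99 FPKM in Control and between 5.67 and 6.71 FPKM in LPS libraries.

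The other 4 subunits did not pass. Mcm4 lay at 8.21 to 10.3 CPM in Control and 10.5 to 13.2 CPM in LPS libraries, without overlap (log2 fold change 0.36, adjusted p = 0.0648, edgeR), and it passed without LPS replicate 3 (adjusted p = 0.0375). Mcm7 lay at 17.4 to 18.9 CPM in Control and 13.4 to 17.7 CPM in LPS libraries (log2 fold change -0.27, adjusted p = 0.0961), and it passed as lower without LPS replicate 1 (adjusted p = 0.0162). Exons of Ap4m1 and Cops6 overlap up to 10.8% of the exon bases of Mcm7 on the other strand. Mcm3 and Mcm5 had log2 fold changes of 0.16 and -0.03, with intervals of -0.36 to 0.69 and -0.38 to 0.33.

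Enzymes of deoxynucleotide supply on the list did not pass either. Rrm1, the large subunit of ribonucleotide reductase, stood at 14.6 to 18.9 CPM in Control and 17.9 to 22.0 CPM in LPS libraries, and its small subunit Rrm2 at 4.56 to 5.30 and 3.21 to 5.25 CPM. Tyms, the thymidylate synthase, stood at 12.9 to 13.7 CPM in Control and 11.5 to 16.7 CPM in LPS libraries. The log2 fold changes of the 3 genes were 0.23, -0.25 and 0.03.

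The promoters of Mcm2 and Mcm6 are printed because these subunits changed in opposite directions. Sequences are from RefSeq on GRCm38.p6, read 5′ to 3′ on the gene's strand, and cover the 250 bases before the annotated start, chr6:88898781-88899030 (minus strand) for Mcm2 and chr1:128359706-128359955 (minus strand) for Mcm6. The build behind the counts is not stated in the labels or files, and these positions belong to the reference. Capitals mark exact matches on either strand to an E2F site (TTTCCCGC or TTTGGCGC), to the cell cycle homology region (CHR; TTTGAA or TTTAAA) bound by DREAM, or to the CCAAT box (CCAAT). None of these motifs contains another.
Mcm2: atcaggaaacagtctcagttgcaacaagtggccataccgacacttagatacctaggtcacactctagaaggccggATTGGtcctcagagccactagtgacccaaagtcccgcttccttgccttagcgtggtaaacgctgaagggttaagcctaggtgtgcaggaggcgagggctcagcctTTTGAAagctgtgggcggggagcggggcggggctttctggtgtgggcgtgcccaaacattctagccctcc
Mcm6: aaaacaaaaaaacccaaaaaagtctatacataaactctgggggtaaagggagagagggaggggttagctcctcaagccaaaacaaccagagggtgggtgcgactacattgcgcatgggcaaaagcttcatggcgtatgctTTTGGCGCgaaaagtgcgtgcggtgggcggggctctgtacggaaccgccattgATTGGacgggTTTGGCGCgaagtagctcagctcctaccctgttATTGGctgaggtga
The stretch of Mcm6 held 2 E2F matches and 2 CCAAT boxes. That of Mcm2 held 1 CHR match, 1 CCAAT box and none of these E2F letters. Of the 32 genes, 26 had windows in the RefSeq table, running from 250 bases before to 50 after the start. E2F letters occurred in 4 of 10 windows of S phase genes, 2 of 8 windows of G1 genes and 0 of 10 windows of mitotic genes, against 1.56% of all 32851 windows. The genes with E2F letters were Mcm3, Mcm5, Mcm6, Mcm7, Cdk2 and Cdc25a, of which Mcm6 fell, Cdc25a rose and the others did not pass. A match describes letters, not a bound site, and its relation to the direction of change was not tested.

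All 12 mitotic genes were present at low levels in both groups and none passed the test. No mitotic gene had an unadjusted p below 0.05 in edgeR, and DESeq2 and limma-voom called 0 of the 12, while limma on log2(FPKM + 1) called Birc5 alone. Among the 2540 tested genes with a mean level up to that of the highest mitotic gene, 3.29 CPM, 36.8% passed. The median log2 fold change of the 12 genes was -0.16. Intervals lay within a 2-fold change in either direction for 4 of them (Ccnb1, Ccnb2, Mki67 and Cdc20), and for the other 8 the interval did not exclude a 2-fold change.

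Mki67, whose protein marks cells in cycle, had 4.78, 2.64 and 3.36 CPM in the Control libraries and 2.735, 3.04 and 3.175 CPM in the LPS libraries. These are 326 counts over the Control libraries and 288 over the LPS libraries, and the interval of the log2 fold change was -0.86 to 0.33 (adjusted p = 0.424, edgeR). Top2a, the topoisomerase that untangles replicated DNA, stood at 4.48, 2.48 and 2.14 CPM in Control and at 2.64, 1.72 and 2.56 CPM in LPS libraries. For both genes Control replicate 1 was the highest library and the remaining Control libraries lay among the LPS libraries or close to them. Ccna2, the cyclin of S phase and early mitosis, stood at 3.18, 2.51 and 1.91 CPM in Control and at 2.27, 1.26 and 1.13 CPM in LPS libraries. It had the lowest fold change of the 12 (log2 -0.70, interval -1.49 to 0.09, adjusted p = 0.126, edgeR) and passed as lower without LPS replicate 1 (log2 -1.07, adjusted p = 0.0317).

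Control replicate 1 had the highest level among the 3 Control libraries for 10 of the 12 mitotic genes and the highest of all 6 libraries for 8. It was also the highest Control for 7 of 10 G1 genes and 6 of 10 S phase genes. In other cell cycle lists this ran from 4 of 14 Cdk inhibitors and inhibitory kinases to 28 of 48 spindle, checkpoint and cytokinesis genes. The share over all genes was not counted. The 12 mitotic genes summed to 22.5 CPM in Control replicate 1 and to 14.6 CPM in Control replicate 2, with Control replicate 3 close to it. In LPS replicates 1, 2 and 3 they summed to 16.9, 13.8 and 14.0 CPM. All 8 T and B cell markers were also highest in Control replicate 1, and Ptprc, the pan-leukocyte marker, reached 16.0 CPM there, with 7.52 and 7.70 CPM in Control replicates 2 and 3. That library was also the highest Control for all 5 endothelial, 4 macrophage and 2 podocyte markers. Its 5 proximal tubule markers summed to 9520 CPM, against 10850 and 10970 CPM in Control replicates 2 and 3. The neutrophil markers summed to 3.24, 3.35 and 2.83 CPM in Control replicates 1 to 3. The part of any of these cells in the mitotic levels was not tested. Without Control replicate 1, the log2 fold change moved from -0.267 to -0.009 for Mki67, from -0.394 to -0.003 for Top2a and from -0.024 to 0.364 for Ccnb2, and no mitotic gene was called. Precursors of neutrophils divide, and their markers were also counted. The 5 markers summed to 0.195 to 0.468 CPM in Control and to 7.35 to 85.6 CPM in LPS libraries. In the LPS libraries most of the sum was Ltf. It stood at 83.5 CPM in LPS replicate 2, the library with the seminal vesicle transcripts, and at 6.48 and 7.77 CPM in the other LPS libraries. The source of the Ltf reads in LPS replicate 2 was not tested. Elane and Mpo had at most 4 counts in any library. Prtn3 had 46 counts over the LPS libraries and 11 over the Control libraries, and Camp had 96 and 2. These 4 genes had too few counts to be tested, and the part of such precursors in the mitotic levels was not tested.

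**Figure D4:**
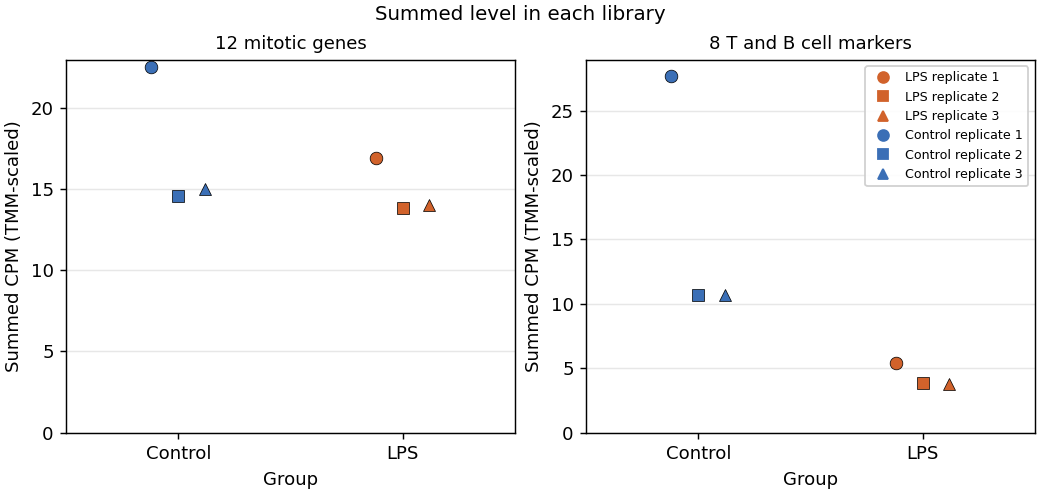
Summed CPM of the 12 mitotic genes (left) and of the 8 T and B cell markers (right) in each library. Control replicate 1 is highest in both panels, at 22.5 and 27.7 CPM, and on the left Control replicates 2 and 3 lie within the LPS range of 13.8 to 16.9 CPM.

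The remaining mitotic genes are the kinases and regulators of chromosome segregation. Pseudogenes named after Ccnb1 and Ccnb2 are annotated in GENCODE M21, and that of Ccnb1 is also listed in the count tables, so reads of either gene may be shared with such a copy. Cdk1, the mitotic kinase, stood at 1.30 to 1.84 CPM in Control and 1.02 to 1.51 CPM in LPS libraries, its cyclin Ccnb1 at 0.691 to 1.04 and 0.873 to 1.14 CPM, and its cyclin Ccnb2 at 0.651 to 1.27 and 0.551 to 1.14 CPM. The spindle kinase Aurka stood at 0.658 to 1.27 and 1.13 to 1.23 CPM, and Aurkb, of the chromosomal passenger complex, at 0.362 to 0.702 and 0.572 to 1.17 CPM. Birc5, which encodes survivin of the same complex, was the only mitotic gene without overlap between the groups, at 1.04 to 1.17 CPM in Control and 0.778 to 0.953 CPM in LPS libraries (log2 -0.39, adjusted p = 0.313, edgeR). Over all genes tested, 60.2% had groups without overlap, 30.5% with LPS above and 29.8% with LPS below. Plk1, a kinase of mitotic entry, Cdc20, the activator of the anaphase-promoting complex, and the checkpoint kinase Bub1 had log2 fold changes of -0.23, -0.01 and -0.09. Bub1 was the scarcest, with 34 counts in each group.

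The promoter of Mki67 is printed as an example of the sequence features that the mitotic genes shared. It covers the 250 bases before the start in RefSeq, chr7:135716380-135716629 (minus strand, GRCm38.p6), with the same motifs in capitals.
Mki67: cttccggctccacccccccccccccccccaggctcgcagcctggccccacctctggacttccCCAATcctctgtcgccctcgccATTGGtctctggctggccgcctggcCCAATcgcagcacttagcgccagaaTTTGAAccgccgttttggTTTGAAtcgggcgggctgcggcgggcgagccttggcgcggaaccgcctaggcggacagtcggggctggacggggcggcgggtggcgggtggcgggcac
This stretch held 3 CCAAT boxes and 2 CHR matches. CHR letters occurred in 9 of the 10 windows of mitotic genes, against 3 of 10 for S phase genes, 1 of 8 for G1 genes and 27.6% of all windows. CCAAT occurred in 9 of 10, 9 of 10 and 3 of 8 windows, against 37.4% of all windows. Both together occurred in 8 of 10 mitotic windows and in 10.7% of all windows.

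Per length, 3 of the 10 G1 genes and Pcna were the abundant members. In Control kidneys the deposited FPKM was 69.7 ± 9.44 for Ccnd1, 43.8 ± 1.06 for Cdk4, 40.3 ± 1.03 for Ccnd3 and 33.0 ± 0.140 for Pcna (SD, n = 3), and every other member lay at or below 6.58 FPKM. Ccne2 and Ccne1, also G1 genes, ranked 25 and 31 of 32 in Control kidneys. In LPS kidneys Cdk4 was first at 59.7 ± 1.17 FPKM, followed by Pcna at 42.6 ± 4.31, Ccnd1 at 34.7 ± 6.31 and Ccnd3 at 28.2 ± 0.359 FPKM. In LPS libraries the ranges of Ccnd1, 28.5 to 41.1 FPKM, and Ccnd3, 27.9 to 28.6 FPKM, overlapped, so the order of this pair was not separated by the spread. The mitotic genes lay at or below 1.13 FPKM in Control and at or below 0.859 FPKM in LPS kidneys, the highest being Birc5 in both groups. Such ranks depend on the gene lengths behind the deposited FPKM. These were 972 bases for Birc5 and 1420 for Cdk4, against 3402 and 2053 exon bases in GENCODE M21. In CPM, Mki67 was the highest mitotic gene.

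Other genes of the pathway, 150 in 6 lists, were of the same mixed kind. Of 141 tested, 22 rose and 21 fell, which is 30.5% against the background of 50.5%, and their median log2 fold change was 0.02. Among 18 tested replication initiation factors 2 rose and 2 fell. Gins2, a subunit of the GINS complex that activates the helicase, rose from 1.997 ± 0.313 to 4.59 ± 0.906 CPM, and Cdt1, which loads MCM onto origins, from 4.58 ± 0.205 to 7.55 ± 2.35 CPM. Mcm10, another initiation factor, fell by 0.93 on the log2 scale and Orc4, of the origin recognition complex, by 0.37. The count of risers was 1 when LPS replicate 1 or any 1 Control replicate was left out, and the count of fallers was 0 without LPS replicate 2 and Control replicate 1 together.

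Among 30 genes of the replication fork and of nucleotide supply, 7 rose and 3 fell. Chaf1b, a subunit of the chromatin assembly factor that places histones behind the fork, rose from 1.04 ± 0.0710 to 3.804 ± 0.669 CPM, or 1.86 ± 0.26 on the log2 scale (adjusted p = 0.000360, edgeR). The maintenance methyltransferase Dnmt1 rose by 0.65 and Pold1, the catalytic subunit of polymerase delta, by 0.87. Rpa1, the single-strand binding protein, and Pole2 fell by 0.24 and 0.89. Without LPS replicate 1 or Control replicate 2, 1 of these genes was lower instead of 3, and without LPS replicate 2 and Control replicate 1 together 4 were higher instead of 7.

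Among 42 tested genes of the spindle, its checkpoint and cytokinesis, 4 rose and 5 fell. The risers included Spc25, a kinetochore subunit, from 14.3 ± 0.719 to 27.7 ± 4.62 CPM, Cks1b, a Cdk-binding protein, from 2.72 ± 0.0466 to 6.01 ± 0.465 CPM, and the centrosomal kinase Nek2, by 0.92 on the log2 scale. The fallers included Ect2, an exchange factor of cytokinesis, by 0.98, the kinetochore motor Cenpe by 1.52, and Pbk, a mitotic kinase, by 2.09, from 1.15 ± 0.317 to 0.265 ± 0.146 CPM. Without LPS replicate 3, 3 of these genes were lower, and limma-voom had 7 higher.

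Among 20 tested regulators of the Rb, E2F and DREAM system, 3 rose and 7 fell. E2f4, a repressive E2F of resting cells, rose from 29.1 ± 2.85 to 46.0 ± 2.81 CPM, E2f3 by 0.73 and the dimer partner Tfdp1 by 0.36 on the log2 scale. The other dimer partner, Tfdp2, fell from 63.7 ± 2.74 to 34.1 ± 4.57 CPM, Rbbp4, a DREAM subunit, by 0.50, and Ccng2, a cyclin of arrested cells, by 0.61. The median of the list was -0.16.

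Among 13 tested Cdk inhibitors and inhibitory kinases, 3 rose and 2 fell. Cdkn1a, which encodes the inhibitor p21, stood at 12.1, 6.35 and 6.41 CPM in Control and at 84.6, 89.4 and 80.8 CPM in LPS libraries, a log2 fold change of 3.36 ± 0.22 (adjusted p = 4.23e-06, edgeR). Pkmyt1, a kinase that inhibits Cdk1, rose by 1.14 and Cdkn1c by 0.36, while the inhibitors Cdkn1b and Cdkn2c fell by 0.37 and 0.60. The count of fallers was 1 without LPS replicate 2, Control replicate 2 or Control replicate 3. Among 18 genes of cyclin destruction, 3 rose and 2 fell, with Skp1, the adaptor of SCF ubiquitin ligases, at -0.60 and Rbx1, Cul1 and Anapc4 at 0.32, 0.25 and 0.22. Anapc2 was at -0.20. The count of risers was 1 without Control replicate 1 or 2. The count of fallers was 1 in 10 of the 18 alternatives, among them DESeq2 and each library left out other than LPS replicate 3.

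**Figure D5:**
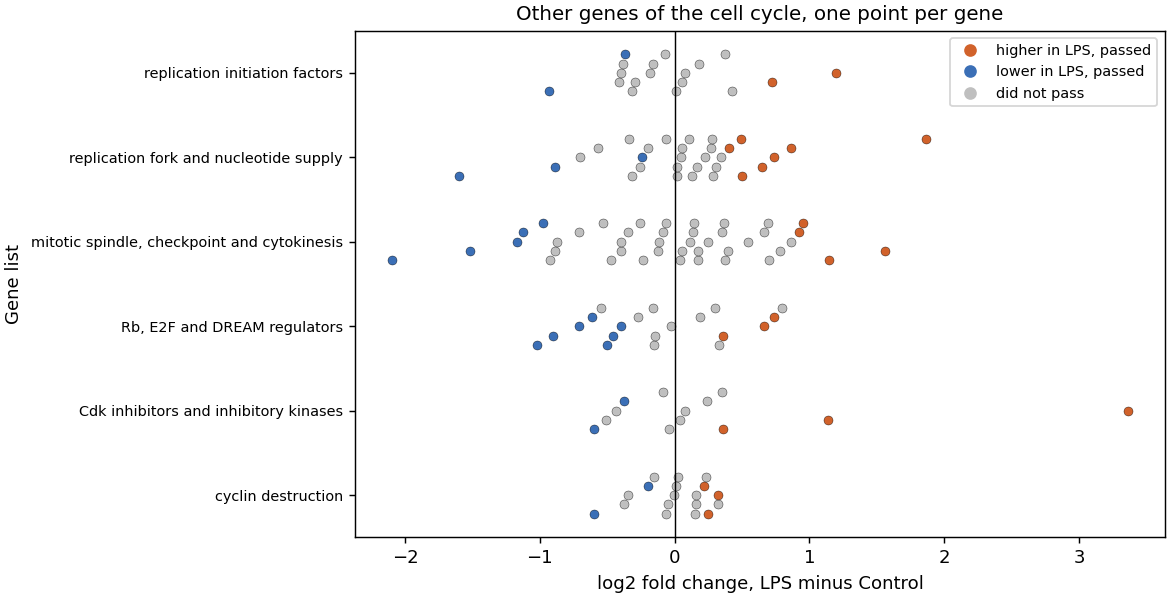
Log2 fold change, LPS minus Control, of the 141 tested genes of 6 other cell cycle lists, 1 point per gene, orange where higher and blue where lower at an adjusted p below 0.05. Points of both colours appear in each list, and Cdkn1a at 3.36 lies farthest from 0.

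Markers of some other cells differed between the groups in which these genes changed, and others did not pass. The 5 proximal tubule markers summed to 9520 to 10970 CPM in Control and 1735 to 1859 CPM in LPS libraries, and all 5 fell. The 5 neutrophil markers summed to 2.83 to 3.35 CPM in Control and 60.2 to 84.3 CPM in LPS libraries, where Ly6g had at most 3 counts, and 4 of 4 tested rose. Of the 5 endothelial markers none passed (edgeR; 1 at an unadjusted p below 0.05, Emcn), at sums of 237 to 314 CPM in Control and 230 to 307 CPM in LPS libraries. The 4 macrophage markers summed to 77.1 to 106 CPM in Control and 91.9 to 105 CPM in LPS libraries, but did not move together. Cd68 rose from 3.97 to 29.3 CPM and C1qa from 16.7 to 26.4 CPM, Csf1r fell from 62.7 to 34.7 CPM, and Adgre1 did not pass at 5.53 and 6.36 CPM. The podocyte marker Nphs1 fell by 1.40 on the log2 scale. Of 2 loop of Henle markers 1 fell, and Umod did not pass (log2 fold change -0.04). Of 3 distal tubule and collecting duct markers 2 fell, and Aqp2 did not pass (-0.13). The pan-leukocyte marker Ptprc did not pass either (-0.04). The 7 erythroid precursor markers summed to 159 to 208 CPM in Control and 33.6 to 79.6 CPM in LPS libraries, most of it Hbb-bs, at 122 to 158 and 26.1 to 60.2 CPM. Of 5 tested, 3 fell and 2 did not pass, of which Epb42 was at 0.87 and Klf1 at -0.80 on the log2 scale. The part of these cells in the changes of the D cyclins, Cdk4, Cdk6, Mcm2, Mcm6 and Pcna was not tested.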

How the data were processed

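Kidney RNA of 3 LPS and 3 Control mice was isolated in TRIzol, and, per the labels' protocols, libraries were built using a Universal V6 kit of the VAHTS line. For each gene symbol and library the authors deposited a raw count and an FPKM value. The submitters' processing notes list R 3.2.0, SAMtools, HISAT2, DESeq2 and HTSeq without saying what each did. Build, annotation and strand setting were not given in the sources used here. The deposited FPKM equalled the count scaled by gene length and library total for 97602 of 97605 values above 0 (relative tolerance 1e-06).

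Groups came from the sample titles. Counts were filtered with filterByExpr (minimum count 10, minimum total 15), scaled with TMM and tested two-sided with the quasi-likelihood test of edgeR 4.0.16 in R 4.3.3, checked on simulated counts. Adjusted p-values are Benjamini-Hochberg values over 14219 genes. The SE is the log2 fold change over the square root of F, and 95% intervals are that SE times the t quantile of the fit. Overlaps of exons are from GENCODE M21 and promoters from RefSeq. Replicate pairs differed by more than sampling noise (chi-square of at least 11.5 per degree of freedom). Intervals cover the spread between libraries only.

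The members and lists were chosen with earlier results of these data known. All 32 members are named, and from each other list up to 3 genes with the smallest p in each direction; 1 gene under this rule is not reported here. Any further gene was picked with its values in view. Alternatives used RLE factors or library sizes, other filters, DESeq2 1.42.0, limma 3.58.1 (voom, or log2 FPKM with a pseudocount of 1 or 0.1), a replicate block, each library left out, and removal of 29 genes (names of the seminal vesicle family, or LPS replicate 2 over 32-fold above the rest).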

Additional observations from a re-analysis of the deposited data

How the results depend on the processing

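The count of members that rose was 3 instead of 5 without LPS replicate 2 and Control replicate 1 together, a choice made after seeing the data. It was 4 to 6 with each library left out, and the count that fell was 4 to 6. All genes higher numbered 3077 to 3666 and lower 3010 to 3490 with 1 library left out. Of the values of single members under alternatives, 522 kept direction and side of the threshold, 5 lost the call, 4 gained one and 23 changed direction. The changes of direction were all in members that did not pass. They gave ranges over the left-out libraries of -0.135 to 0.105 for E2f1, -0.02 to 0.331 for Mcm3, -0.095 to 0.058 for Mcm5, -0.14 to 0.143 for Tyms, -0.295 to 0.364 for Ccnb2, -0.462 to 0.418 for Bub1, -0.458 to 0.066 for Plk1 and -0.251 to 0.149 for Cdc20. Without both libraries the log2 fold changes were 0.117 for E2f1, 0.369 for Ccnb2, 0.174 for Top2a and 0.059 for Cdc20, and Cdc20 stood at 0.029 in limma-voom, 0.006 in log2(FPKM + 0.1) and 0.013 with the replicate block. The cause of these moves was not tested. The replicate numbers share no stated litter or batch, and same-numbered libraries had deviations correlated at 0.0356, -0.0663 and -0.00832. These values show no pairing by number, but with deviations taken within 3 libraries they cannot exclude it. With the replicate block 6745 genes were called instead of 7185, with 3414 higher and 3331 lower, and members stayed at 5 higher and 4 lower, no member call changing. Not every library correlated best with its own number. The mitotic genes had 34 to 326 counts per group, which limits the precision of their fold changes.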

Other observations

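Of the 150 other cell cycle genes, 9 had too few counts to be tested, and some of them are textbook mitotic genes. Summed over a group, the kinase Ttk had 14 counts after LPS and 15 after saline. The kinetochore gene Ndc80 had 31 and 10, of which 17 were in LPS replicate 2, and the origin gene Orc1 had 13 and 6, of which 11 were in LPS replicate 1. The phosphatase gene Cdc25c had 5 and 2, and the inhibitor gene Cdkn2a had 2 and 3.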
